A study of Homo sapiens with 33 samples.

Results

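The 38 HOX genes examined here encode homeodomain transcription factors and lie in the HOXA, HOXB, HOXC and HOXD clusters. They were chosen by gene symbol alone, without use of any measured value, and are 38 of the 35805 genes in the RNA table. On GRCh38 the HOXA members (10 genes) lay between positions 27100354 and 27200106 of chromosome 7, the HOXB members (10 genes) between 48528526 and 48729178 of chromosome 17, the HOXC members (9 genes) between 53938765 and 54056030 of chromosome 12 and the HOXD members (9 genes) between 176092891 and 176190907 of chromosome 2. By paralog group they were 7 anterior (groups 1 to 3), 15 central (groups 4 to 8) and 16 posterior (groups 9 to 13) genes. All samples were H9 cells, an established human embryonic stem cell (ESC) line grown on mouse embryonic fibroblast feeders and sorted by flow cytometry for the surface marker SSEA4. RNA-seq covered 4 genotypes with 3 libraries each. EZH2+/+ ESCs are the parental line, and EZH2-/+ ESCs are a clonal line in which CRISPR/Cas9 disrupted 1 allele. EZH2-/- ESCs were made from an EZH2-/+ line that carried a doxycycline (DOX)-inducible EZH2 transgene, by targeting the remaining allele, and were kept without DOX. EZH2-/-+EZH2 ESCs, called restored here, are the null cells with the transgene induced by DOX. The mutant genotypes therefore also differ from the parental line by cloning, and the null and restored cells by puromycin selection and piggyBac insertion. ChIP-seq gave 1 column per genotype for H3K27me3, H3K4me3, H3K27ac, H3K4me1 and input, and 1 for EZH2 in EZH2+/+ ESCs, so the chromatin values have no replicate spread and were not tested. The study describes the columns as averages of biological replicates. The steps between the lowest values are those of 2 libraries averaged as logarithms for each histone and input column, and of 1 library for EZH2.

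HOX genes give cells their position along the head-to-tail axis of the embryo. Within a cluster the order of the genes follows the order in which they are switched on, with anterior genes used early and in the hindbrain and posterior genes used late and in the tail, limb ends and genital tract. In pluripotent cells the clusters are classical targets of Polycomb repressive complex 2 (PRC2), whose catalytic subunit EZH2 places H3K27me3. Their promoters also carry H3K4me3, a mark of active or poised promoters, while H3K27ac and H3K4me1 accompany active promoters and enhancers. Retinoic acid is a known inducer of the anterior genes, and TALE homeodomain proteins of the PBX, MEIS and PKNOX families bind DNA together with HOX proteins.

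Promoter sequences are shown for 5 members. The first 3, HOXB1, HOXA2 and HOXD11, are the only members with a match to the motif marked below. HOXB1 and HOXA2 were higher in EZH2+/+ than in EZH2-/- ESCs. HOXD11, HOXD13 and HOXA13 had RNA in every EZH2-/- library and little or none elsewhere. Other members with promoter entries shared that RNA pattern without a match. RefSeq promoters (GRCh38.p14) matched 20 of the 38 members, with 27 promoter entries in all. HOXA5, HOXB2 to HOXB9, HOXB13, HOXC6, HOXC8 to HOXC13 and HOXD9 had no entry. Each sequence holds the 250 bases before the annotated start. In the first 3, capitals mark a match to TGATNNAT, the class of site bound by HOX and PBX proteins together, searched on both strands.
HOXB1 (chr17:48531012-48531261, minus strand): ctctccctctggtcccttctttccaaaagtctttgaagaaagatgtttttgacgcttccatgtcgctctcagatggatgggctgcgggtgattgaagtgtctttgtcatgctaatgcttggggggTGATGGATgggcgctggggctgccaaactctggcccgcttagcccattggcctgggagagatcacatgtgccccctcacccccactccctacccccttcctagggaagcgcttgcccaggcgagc
HOXA2 (chr7:27102684-27102933, minus strand): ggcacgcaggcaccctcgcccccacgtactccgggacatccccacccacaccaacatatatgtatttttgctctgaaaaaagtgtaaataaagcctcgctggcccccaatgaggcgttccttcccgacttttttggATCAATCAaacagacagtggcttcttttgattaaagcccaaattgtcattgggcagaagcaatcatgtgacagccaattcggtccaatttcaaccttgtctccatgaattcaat
HOXD11 (chr2:176107030-176107279, plus strand): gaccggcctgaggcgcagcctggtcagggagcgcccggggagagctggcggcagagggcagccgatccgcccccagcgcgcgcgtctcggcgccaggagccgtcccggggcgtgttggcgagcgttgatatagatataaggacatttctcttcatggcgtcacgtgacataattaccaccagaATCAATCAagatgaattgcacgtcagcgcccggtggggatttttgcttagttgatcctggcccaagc
In the next pair, capitals mark CG dinucleotides.
HOXD13 (chr2:176092471-176092720, plus strand): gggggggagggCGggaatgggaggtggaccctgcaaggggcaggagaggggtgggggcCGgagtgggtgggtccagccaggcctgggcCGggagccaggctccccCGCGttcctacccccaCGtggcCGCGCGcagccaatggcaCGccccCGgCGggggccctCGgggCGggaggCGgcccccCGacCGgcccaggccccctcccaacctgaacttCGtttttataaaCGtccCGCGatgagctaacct
HOXA13 (chr7:27200092-27200341, minus strand): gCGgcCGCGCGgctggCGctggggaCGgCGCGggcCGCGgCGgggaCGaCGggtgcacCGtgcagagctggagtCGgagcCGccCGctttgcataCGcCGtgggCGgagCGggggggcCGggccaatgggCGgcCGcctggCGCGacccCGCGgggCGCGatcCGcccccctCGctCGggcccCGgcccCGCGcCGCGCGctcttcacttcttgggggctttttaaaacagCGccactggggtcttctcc

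The HOXB1 match reads TGATGGAT on the strand of the gene and spans bases 125 to 118 before the start. The HOXA2 match spans bases 114 to 107 and the HOXD11 match bases 67 to 60, both reading TGATTGAT on the opposite strand. These were the only matches in the 27 member promoters, and 6.47% of all 35116 promoters in the table held 1 or more, so a match is a description of these letters and not evidence of binding. The printed promoters held 7 CG dinucleotides at HOXB1, 8 at HOXA2, 23 at HOXD11, 21 at HOXD13 and 40 at HOXA13. The median was 19 over the member promoters (range 0 to 40) and 11 over all promoters.

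Between 16587860 and 36589089 reads of each library lay on genes, and 3 reads were worth 0.0528 to 0.120 RPM, reads scaled to the size of the library. EZH2 itself was at 68.6, 63.3 and 59.5 RPM in EZH2+/+, 55.4, 52.3 and 45.7 in EZH2-/+, 11.5, 8.65 and 9.68 in EZH2-/-, and 271, 385 and 256 RPM in restored ESCs. It fell by 2.68 ± 0.17 on the log2 scale (SE, n = 3 and 3, limma adjusted p = 5.1e-06) in EZH2-/- relative to EZH2+/+ ESCs. The disrupting mutation shifts the reading frame, so RNA that remains does not measure EZH2 protein. The 8 pluripotency markers summed to between 2187 and 3583 RPM in every library. Mesoderm markers summed to 142 to 228 RPM in EZH2-/- ESCs against 9.39 to 132 RPM in the other genotypes, and endoderm markers to 162 to 465 RPM against 14.0 to 453 RPM. Fibroblast or mesenchyme markers summed to 287 to 530 RPM in EZH2-/- ESCs against 232 to 361 RPM, trophectoderm or amnion markers to 21.6 to 31.9 RPM against 9.55 to 20.4 RPM, and neural markers, most of it TUBB3, to 100 to 167 RPM in all libraries, with NEUROG2, DCN and CGA at or near 0. Between EZH2-/- and restored ESCs the called markers were HAND1 (1 of 7 mesoderm), CXCR4 and SOX17 (2 of 6 endoderm), COL3A1 and LUM (2 of 6 fibroblast or mesenchyme) and GATA3 and TBX3 (2 of 5 trophectoderm or amnion), all higher, and none of 8 pluripotency or 5 neural markers. With the library number as a block these counts were 4 mesoderm, 5 endoderm, 2, 2, 1 pluripotency (lower) and 0 neural. Over all 20608 genes tested, 542 were called higher without the block and 1276 with it. Relative to EZH2+/+ ESCs 5 of 8 pluripotency markers rose in EZH2-/- ESCs, where 12.6% of all genes tested rose, and SOX2 fell. In restored ESCs 4 of 8 rose (3.40% of genes), and in EZH2-/+ ESCs TDGF1 alone. Mesoderm (3 of 7), endoderm (4 of 6), fibroblast or mesenchyme (3 of 6) and trophectoderm or amnion (3 of 5) markers rose in EZH2-/- ESCs too, and COL1A2 fell. The neural genes SOX1 and PAX6 fell in EZH2-/- and restored ESCs relative to EZH2+/+, and SOX1 in EZH2-/+ ESCs too. SOX1 was at 9.41, 9.33 and 3.5 RPM in EZH2+/+ and 0.539, 0.194 and 1.09 RPM in EZH2-/+ ESCs. It was at 0 to 0.0297 RPM in EZH2-/- and 0.120 to 0.206 RPM in restored ESCs. SOX1 was thus lowest in EZH2-/- ESCs, and HOXB1, HOXB2 and HOXB3, described later, were lowest in EZH2-/+ ESCs. HOXA2 was low in all 3 mutant genotypes, with means of 0.0866 RPM in EZH2-/+, 0.180 in EZH2-/- and 0.0343 RPM in restored ESCs. The part of these cell types in the HOX values was not tested, and in bulk RNA fewer expressing cells and less RNA per cell cannot be told apart. The study calls the libraries biological replicates, and the labels do not say whether they came from separate cultures, so p-values measure the spread between these libraries.

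Summed over the 38 genes, HOX RNA reached 28.2, 72.3 and 14.2 RPM in EZH2+/+ ESCs, 1.86, 0.864 and 1.23 in EZH2-/+ ESCs, 14.4, 41.0 and 40.3 in EZH2-/- ESCs and 20.4, 9.22 and 8.99 RPM in restored ESCs. The EZH2+/+ and EZH2-/- sums overlapped, but were divided differently among the genes. HOXB1, HOXB2 and HOXB3 had the highest means in both, at 19.1, 10.2 and 4.47 RPM in EZH2+/+ and 3.54, 4.16 and 3.22 RPM in EZH2-/- ESCs. In EZH2+/+ ESCs anterior genes held 96.0% of the summed HOX RPM and posterior genes 1.25%, and in restored ESCs anterior genes held 93.7%. In EZH2-/- ESCs the shares were 36.4% anterior, 25.2% central and 38.3% posterior. By cluster, HOXB genes held 90.1% in EZH2+/+ and 98.4% in restored ESCs. In EZH2-/- ESCs the HOXB share was 61.3%, with 19.2% from HOXA, 13.6% from HOXD and 5.92% from HOXC.

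**Figure D1:**
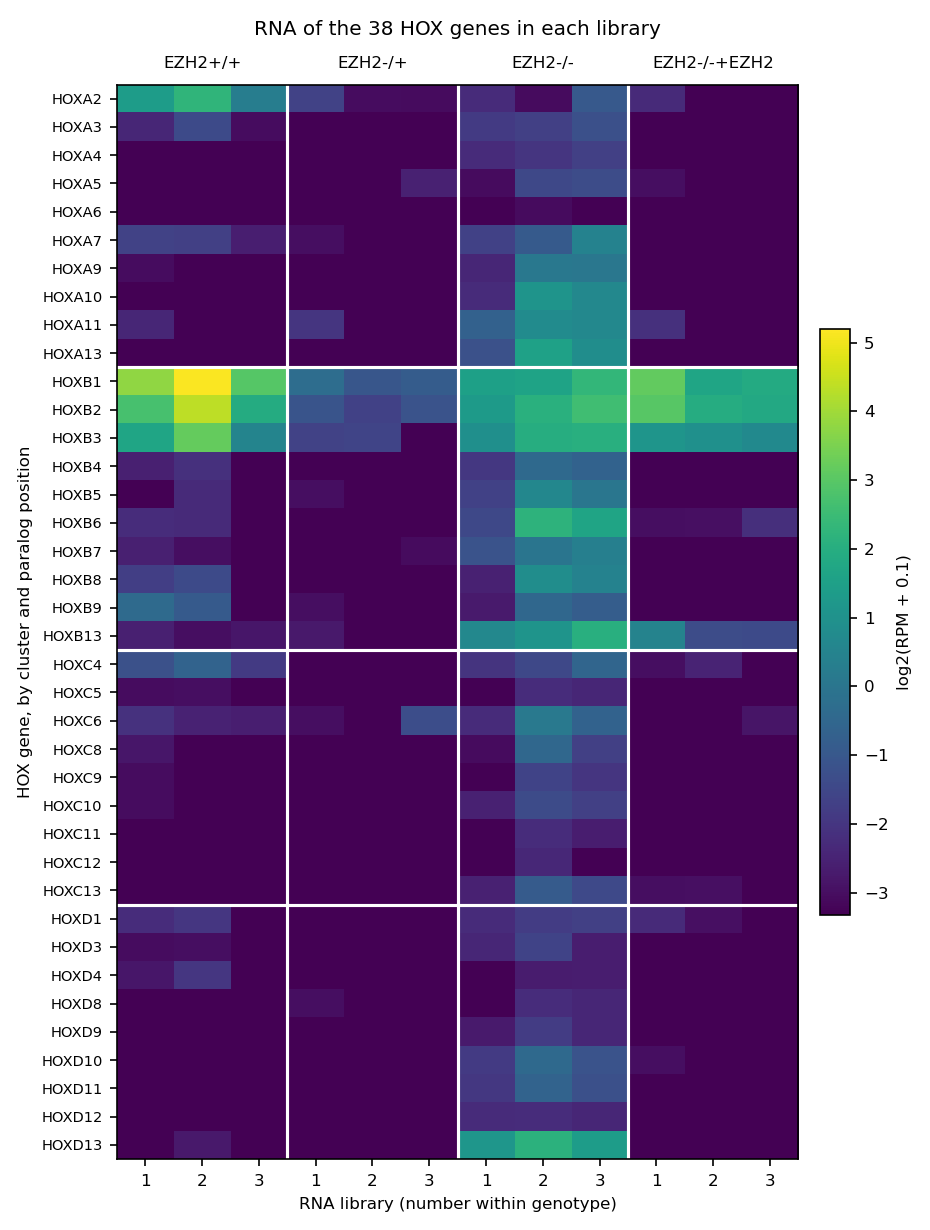
RNA of each of the 38 HOX genes (rows, by cluster and paralog position) in each of the 12 libraries (columns, 3 per genotype), coloured by log2(RPM + 0.1). Bright rows in EZH2+/+ ESCs are HOXA2 and HOXB1 to HOXB3, whereas in EZH2-/- ESCs signal spreads through all 4 clusters, most of all in libraries 2 and 3.

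More than 3 reads in every library of a genotype were found for 24 of the 38 genes in EZH2-/- ESCs, against 5 in EZH2+/+, 2 in EZH2-/+ and 4 in restored ESCs. Each of the 38 genes had a read in at least 1 EZH2-/- library, whereas 13 had no read in any EZH2+/+ library and 25 had none in EZH2-/+ or in restored ESCs. Such counts depend on depth. EZH2-/- libraries held 22800276 to 35502184 reads on genes and restored libraries 16587860 to 25346801. The ranges were 25521205 to 30685614 in EZH2+/+ and 26068547 to 36589089 in EZH2-/+ ESCs. Over all genes, 23107 to 24249 had a read in EZH2-/- libraries and 21687 to 22833 in restored libraries. In EZH2+/+ libraries 23045 to 23399 did, and in EZH2-/+ libraries 22270 to 22901. The part of depth in the HOX counts was not tested. For 18 of 38 genes all 3 EZH2-/- libraries lay above all 9 others, a pattern held by 6.60% of the 27443 genes with a read. These 18 were HOXA4, HOXA9, HOXA10, HOXA11, HOXA13, HOXB4 to HOXB7, HOXB13, HOXC10, HOXC13, HOXD3 and HOXD9 to HOXD13. EZH2+/+ lay above all other genotypes for HOXA2 alone, against 4.94% of genes. EZH2-/- library 1 was the lowest of its 3 for 33 of the 38 genes, and it was also low for HAND1 (2.69 RPM, against 35.9 and 31.3) and COL3A1 (4.70 RPM, against 109 and 47.8). Whether these are linked was not tested.

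**Figure D2:**
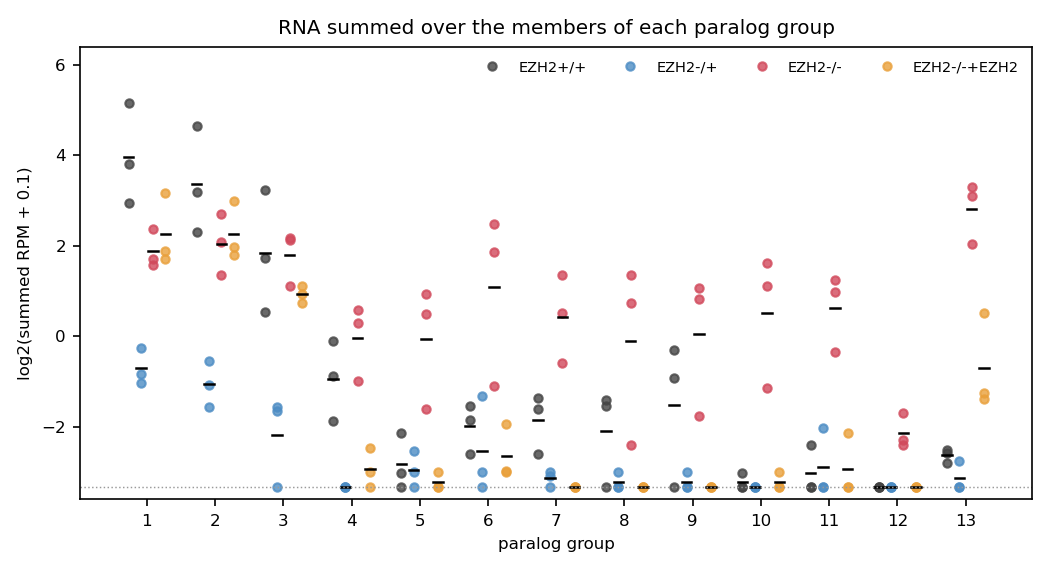
RNA summed over the members of each paralog group, as log2(summed RPM + 0.1), with 1 point per library, a black bar at the mean of 3 libraries and a dotted line at the value of no reads. EZH2+/+ points lie high at groups 1 to 3 and fall towards the dotted line at groups 10 to 13, whereas EZH2-/- points stay well above it at groups 10, 11 and 13.

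The gradient along the paralog groups was steep in control cells and shallow in EZH2-/- ESCs. Members of group 13, the most posterior genes, summed to 0.0666, 0.0761 and 0.0437 RPM in EZH2+/+ and to 4.01, 9.72 and 8.49 RPM in EZH2-/- ESCs. In restored ESCs they summed to 1.34, 0.322 and 0.280 RPM, nearly all of it HOXB13. Group 12 had 0.106, 0.206 and 0.0891 RPM in EZH2-/- ESCs and no reads in the 9 other libraries. All posterior genes together summed to 5.35, 17.2 and 14.2 RPM in EZH2-/- ESCs, above each of the other libraries, whose highest value was 1.49 RPM. Central genes showed the same separation, at 1.65, 12.2 and 10.3 RPM against at most 1.65 RPM, with EZH2-/- library 1 level with the highest EZH2+/+ library.

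The RNA comparison of EZH2-/- with restored ESCs sets the null line without DOX against the same line with DOX and induced EZH2. Effects of DOX and of EZH2 cannot be told apart here. Mean EZH2 RNA was 304 RPM in restored ESCs, above the 63.8 RPM of EZH2+/+ ESCs. A filter on low values (a mean of at least 0.1 RPM over 12 libraries) left 20 of the 38 members in the limma fit, several of them only through their EZH2-/- values, so their number is not a measure of how often HOX genes changed. Of the 20, 12 were higher in EZH2-/- ESCs and none lower, where 2.63% of the 20608 genes tested were called higher. With no filter, 19 of all 38 were called higher, against 2.53% of 27443 genes. Over all 38 the fitted median was 1.52 on the log2 scale with 36 positive, against 0.03 over all genes, and it was 2.17 over the 34 genes left when genotypes without reads were set to a 3-read limit per library. The called genes were HOXA7, HOXA9, HOXA10, HOXA11, HOXA13, HOXB4 to HOXB7, HOXB13, HOXD10 and HOXD13, with no anterior member among the 4 of 7 that passed the filter, while the unfiltered fit also called the anterior genes HOXA3 (adjusted p = 0.0167) and HOXD3 (adjusted p = 0.0206). The count depended on single libraries: it was 3 without EZH2-/- library 2, 7 without library 3 and 16 without library 1, and 9, 8 and 8 without each restored library. With the library number as a block it was 15, the 3 further genes being HOXB8, HOXC4 and HOXC6.

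Against EZH2+/+ ESCs, which asks how the null line differs from its parent, 11 of the 20 tested members rose in EZH2-/- ESCs (12.6% of all genes tested rose) and 2 fell, HOXA2 and HOXB1 (18.8% of all genes fell). With no filter 20 of 38 rose, where 10.4% of genes did. The fitted median over all 38 was 1.3, with 32 positive, against -0.06 over all genes, or 2.42 over 34 genes with the 3-read limit. Both comparisons use the same EZH2-/- libraries, so they are not independent of each other. In EZH2-/+ ESCs 5 members fell relative to EZH2+/+ (0.966% of genes fell) and none rose. In restored ESCs 1 was above EZH2+/+ (3.40% of genes) and 3 were below (6.90%). These 3 comparisons share the EZH2+/+ libraries.

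Anterior genes carried most HOX RNA in the parental line. HOXB1, which gives the hindbrain segment of the facial nerve its identity, was at 13.8, 35.8 and 7.65 RPM in EZH2+/+, 0.735, 0.389 and 0.463 in EZH2-/+, 2.78, 2.97 and 4.87 in EZH2-/-, and 8.79, 3.14 and 3.6 RPM in restored ESCs. The 3 mutant genotypes sat below EZH2+/+ except that 1 restored library exceeded the lowest EZH2+/+ library. It fell by 4.68 ± 0.51 (adjusted p = 0.00151) in EZH2-/+ and by 2.15 ± 0.51 (adjusted p = 0.00746) in EZH2-/- ESCs on the log2 scale. The fall of 1.73 ± 0.51 in restored ESCs lay at the threshold (adjusted p = 0.05) and kept its call in 5 of 14 alternative analyses. EZH2-/- and restored ESCs differed by -0.43 ± 0.51 (adjusted p = 0.722).

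HOXB2, another hindbrain gene, had 6.46, 20.3 and 3.71 RPM in EZH2+/+ and 0.367, 0.216 and 0.356 RPM in EZH2-/+ ESCs. It had 2.37, 4.15 and 5.97 RPM in EZH2-/- and 7.82, 3.81 and 3.40 RPM in restored ESCs. EZH2-/+ lay below all other libraries, and the remaining genotypes overlapped. HOXB2 fell by 4.30 ± 0.54 in EZH2-/+ ESCs (adjusted p = 0.00246), whereas EZH2-/- differed from EZH2+/+ by -1.0 ± 0.54 (adjusted p = 0.176). HOXB3, which acts in the hindbrain and pharyngeal arches, was also lowest in EZH2-/+ ESCs, with 3.11, 8.98 and 1.33 RPM in EZH2+/+, 0.220 and 0.238 RPM and no reads in EZH2-/+, 1.81, 3.85 and 4.01 RPM in EZH2-/-, and 2.06, 1.82 and 1.56 RPM in restored ESCs. Its fall in EZH2-/+ ESCs was 3.97 ± 0.61 (adjusted p = 0.00875), and EZH2+/+ overlapped both null-derived genotypes.

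HOXA2, which sets the identity of the second pharyngeal arch, behaved differently from its HOXB neighbours in paralog position. It was at 2.53, 4.67 and 1.14 RPM in EZH2+/+ ESCs, 0.220, 0.0216 and 0.0178 in EZH2-/+, 0.106, 0.0188 and 0.416 in EZH2-/-, and 0.103 RPM in 1 restored library with no reads in the others. Every EZH2+/+ library exceeded all 9 others. It fell by 3.91 ± 0.62 (adjusted p = 0.0105) in EZH2-/+, by 3.42 ± 0.62 (adjusted p = 0.0016) in EZH2-/- and by 4.30 ± 0.62 (adjusted p = 0.00161) in restored ESCs, and the latter 2 calls held in 13 of 13 alternative analyses. HOXA2 was the HOXA member with the highest mean over the 12 libraries. Per kilobase of exon, EZH2+/+ levels were 7.67 RPM for HOXB1, 4.14 for HOXB2, 1.19 for HOXA2 and 0.602 for HOXB3, and 0.141 or less for the other 34 members. The falls in EZH2-/+ ESCs all lost their calls in a fit of those 2 genotypes alone. Over all genes that fit called 10 lower, against 199 in the fit of all 12 libraries. A fit of EZH2-/- and EZH2+/+ ESCs alone kept 11 higher and 2 lower members. The reason for the loss was not tested.

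Within EZH2+/+ ESCs library 2 was the highest and library 3 the lowest for each of these 4 genes. The same held for MEIS1 (4.71, 9.53 and 1.62 RPM), for the non-coding RNA HOTAIRM1 (4.77, 9.0 and 3.50 RPM) and for the retinoic acid-binding protein gene CRABP1 (231, 575 and 168 RPM). EZH2-/+ library 2, with the highest endoderm marker sum of its genotype (453 RPM), had a HOX sum of 0.864 RPM, the lowest of the 12 libraries.

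**Figure D3:**
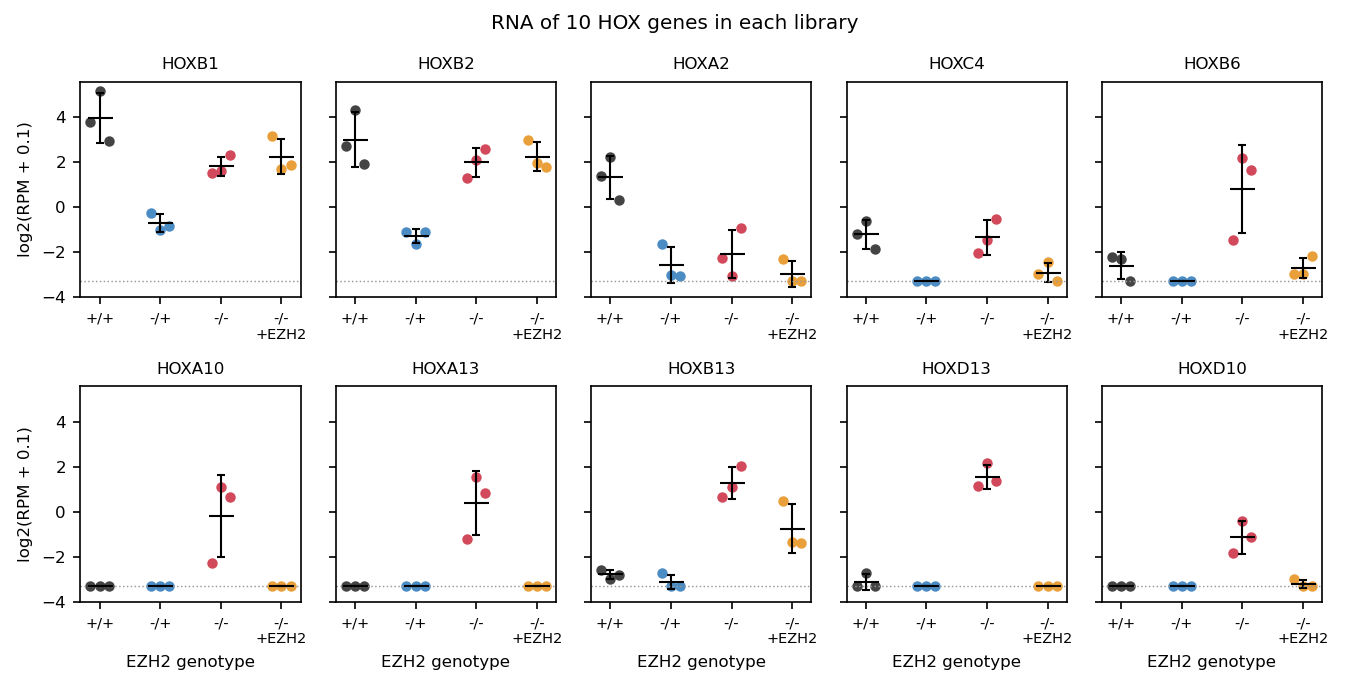
RNA of 10 HOX genes by EZH2 genotype, as log2(RPM + 0.1), with 1 point per library, a bar and whiskers for the mean ± SD of the 3 log2 values, and a dotted line at the value of no reads. HOXB1, HOXB2, HOXA2 and HOXC4 are high in EZH2+/+ and low in EZH2-/+ ESCs, and the other 6 genes are high in EZH2-/- ESCs, with HOXB13 between the extremes in restored ESCs.

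Central genes, which pattern the neck and trunk, were mostly near the limit of counting outside EZH2-/- ESCs. HOXB6 had 0.264, 4.47 and 3.03 RPM in EZH2-/-, 0.111 and 0.101 RPM and no reads in EZH2+/+, no reads in EZH2-/+, and 0.0257, 0.0268 and 0.120 RPM in restored ESCs. All EZH2-/- libraries lay above the rest, with library 1 far under the others. It rose by 3.51 ± 0.73 over restored ESCs (adjusted p = 0.0222) and by 3.42 ± 0.73 over EZH2+/+ ESCs (adjusted p = 0.00406). The first call held in 5 of 13 alternative analyses, and was lost without EZH2-/- library 2 or 3. HOXB7 was the most stable central gene, with 0.352, 0.901 and 1.19 RPM in EZH2-/- ESCs, 0.0666 and 0.0254 RPM and no reads in EZH2+/+, 1 library at 0.0178 RPM in EZH2-/+ and no reads in restored ESCs. Its change was 3.06 ± 0.38 against restored ESCs (adjusted p = 0.00195) and 2.71 ± 0.38 against EZH2+/+ (adjusted p = 0.000353), called in 13 of 13 alternative analyses of each, and its EZH2-/- mean was at least 8.80-fold above the 3-read limit of the restored libraries.

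HOXB5, a regulator of foregut and enteric nerve development, had 0.211, 1.45 and 0.920 RPM in EZH2-/- ESCs, 0.101 RPM in 1 EZH2+/+ library, 0.0245 RPM in 1 EZH2-/+ library and no reads in the other 7. EZH2-/- ESCs were at least 9.29-fold above the 3-read limit of restored ESCs, and the fitted change was 2.98 ± 0.51 (adjusted p = 0.00933). HOXB4, known for expanding blood stem cells, had 0.158, 0.657 and 0.534 RPM in EZH2-/- ESCs and 0.0666 and 0.127 RPM in 2 EZH2+/+ libraries, with no reads in the rest. The EZH2-/- values again lay above all others, by 2.32 ± 0.42 over restored ESCs (adjusted p = 0.0128) and 1.68 ± 0.42 over EZH2+/+ ESCs (adjusted p = 0.00969). HOXA7 had 0.211, 0.432 and 1.28 RPM in EZH2-/- but also 0.222, 0.203 and 0.0656 RPM in EZH2+/+ ESCs, with 0.0245 RPM in 1 EZH2-/+ library and no reads in restored ESCs. These groups overlapped, and only the difference from restored ESCs was called (2.61 ± 0.47, adjusted p = 0.0125, against adjusted p = 0.056 for EZH2+/+).

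HOXC4 shared the pattern of the anterior genes in part, with 0.333, 0.558 and 0.175 RPM in EZH2+/+, no reads in EZH2-/+, 0.141, 0.263 and 0.594 RPM in EZH2-/-, and 0.0257 and 0.0804 RPM and no reads in restored ESCs. It fell by 2.10 ± 0.43 in EZH2-/+ (adjusted p = 0.0374) and by 1.70 ± 0.43 in restored ESCs (adjusted p = 0.026), each call kept in 7 of 13 alternative analyses. EZH2-/- ESCs overlapped EZH2+/+ ESCs, and exceeded restored ESCs by 1.58 ± 0.43 (adjusted p = 0.0707, or 0.0422 with the replicate block). HOXC6, the HOXC member with the highest mean, had 0.133, 0.0761 and 0.0656 RPM in EZH2+/+, 0.0245 and 0.302 RPM in 2 EZH2-/+ libraries, 0.106, 0.995 and 0.534 RPM in EZH2-/-, and 0.0400 RPM in 1 restored library. Its difference of 2.22 ± 0.60 between the null-derived genotypes had an adjusted p of 0.0676 (0.0332 with the block). HOXB8 likewise had 0.0704, 1.73 and 1.28 RPM in EZH2-/-, 0.200 and 0.279 RPM in 2 EZH2+/+ libraries and no reads elsewhere (2.91 ± 0.74, adjusted p = 0.052, or 0.0277 with the block).

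Posterior genes showed the clearest separation. HOXD13, which shapes the digits and is mutated in synpolydactyly, had 2.13, 4.37 and 2.49 RPM in EZH2-/- ESCs and no reads in the EZH2-/+ and restored libraries. In EZH2+/+ ESCs 1 library held 0.0507 RPM and the other two had no reads. Every EZH2-/- library was thus far above every other. HOXD13 rose by 4.89 ± 0.32 over restored ESCs (adjusted p = 1.7e-05) and by 4.69 ± 0.32 over EZH2+/+ ESCs (adjusted p = 5.05e-06), and both calls held in 13 of 13 alternative analyses. The EZH2-/- mean of 3.00 ± 1.2 RPM (SD, n = 3) was at least 32.4-fold above the 3-read limit in restored ESCs. HOXD13 was the HOXD member with the highest mean, and at 1.24 RPM per kilobase its EZH2-/- level ranked after HOXB2 (1.70) and HOXB1 (1.42) and ahead of HOXB6 (0.993) and HOXB13 (0.829).

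HOXA13, a gene of digits, hindgut and genital tract, had 0.334, 2.85 and 1.69 RPM in EZH2-/- ESCs and no reads in the 9 other libraries. It rose by 3.72 ± 0.53 over restored ESCs (adjusted p = 0.00349), at least 17.6-fold in linear terms, and was at least 23.4-fold above the limit in EZH2+/+ ESCs (adjusted p = 0.000365). HOXA10, needed for uterine development, had 0.106, 2.03 and 1.48 RPM in EZH2-/- ESCs and again no reads elsewhere. Its rise of 3.15 ± 0.65 (adjusted p = 0.0216 over restored ESCs and 0.00337 over EZH2+/+) was at least 13-fold and 17.4-fold. The call against restored ESCs held in 4 of 13 alternative analyses and that against EZH2+/+ ESCs in 13 of 13.

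HOXA11, which patterns the forearm and the uterus, had 0.528, 1.61 and 1.48 RPM in EZH2-/- ESCs and reads in library 1 alone of each other genotype, at 0.0888 RPM in EZH2+/+, 0.147 in EZH2-/+ and 0.129 RPM in restored ESCs. It rose by 3.18 ± 0.52 (adjusted p = 0.00747) over restored ESCs and 3.27 ± 0.52 (adjusted p = 0.000708) over EZH2+/+ ESCs. HOXA9, a blood stem cell and leukaemia gene, had 0.0880, 0.976 and 0.95 RPM in EZH2-/- ESCs and no reads elsewhere but in 1 EZH2+/+ library (0.0222 RPM), and rose in both comparisons (2.58 ± 0.54, adjusted p = 0.0226 over restored ESCs, and 2.48 ± 0.54, adjusted p = 0.00445 over EZH2+/+). Its call against restored ESCs held in 5 of 13 alternative analyses and was lost without EZH2-/- library 2 or 3 or any single restored library. HOXD10, used in lumbar motor neurons and limbs, had 0.176, 0.657 and 0.356 RPM in EZH2-/- ESCs, with 0.0257 RPM in 1 restored library (2.08 ± 0.36, adjusted p = 0.0095), with no reads in EZH2+/+ or EZH2-/+ ESCs (2.19 ± 0.36 over EZH2+/+, adjusted p = 0.000793). For all 3 genes the EZH2-/- libraries lay above the 9 others.

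HOXB13, a prostate and tail gene, was the one member above EZH2+/+ in both null-derived genotypes. It had 0.0666, 0.0254 and 0.0437 RPM in EZH2+/+, 0.0490 RPM in 1 EZH2-/+ library, 1.48, 2.05 and 4.04 RPM in EZH2-/-, and 1.31, 0.295 and 0.280 RPM in restored ESCs. The 4 genotypes thus formed 3 levels without overlap, since the highest restored library stayed below the lowest EZH2-/- library by a narrow margin. It was higher by 4.06 ± 0.50 in EZH2-/- (adjusted p = 0.000146) and by 2.05 ± 0.50 in restored ESCs (adjusted p = 0.0217) than in EZH2+/+ ESCs. The difference of 2.02 ± 0.50 between the null-derived genotypes (adjusted p = 0.0479) held in 5 of 13 alternative analyses, and that of restored ESCs from EZH2+/+ ESCs in 7 of 13.

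Of the 18 members under the filter, 8 were called higher in EZH2-/- than in restored ESCs in the unfiltered fit, and all were low. HOXD11 had 0.158, 0.563 and 0.327 RPM in EZH2-/- ESCs and no reads elsewhere (2.06 ± 0.26, adjusted p = 0.00209). HOXA4 had 0.106, 0.150 and 0.208 RPM and HOXD12 0.106, 0.113 and 0.0891 RPM in EZH2-/- ESCs, both without a read in the 9 other libraries. The others were HOXA3, HOXC10, HOXC13, HOXD3 and HOXD9, with EZH2-/- means between 0.110 and 0.263 RPM. The remaining 10 (HOXA5, HOXA6, HOXC5, HOXC8, HOXC9, HOXC11, HOXC12, HOXD1, HOXD4 and HOXD8) had EZH2-/- means between 0.00626 and 0.282 RPM and were not called in that fit. HOXB9 passed the filter without a call, with 0.666 and 0.431 RPM in 2 EZH2+/+ libraries and 0.0528, 0.619 and 0.475 RPM in EZH2-/- ESCs. Counting did not use strand, and 32 of the 38 members overlap another listed gene, so reads of antisense or overlapping transcripts cannot be told apart for any named gene except HOXA2, HOXB1, HOXB13, HOXC12, HOXD12 and HOXD13.

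Genes that work with HOX proteins moved less uniformly. Among 9 TALE cofactors, all tested, 1 rose in EZH2-/- relative to restored ESCs and none fell (with the block, 1 rose and 2 fell). Over all genes tested 2.63% rose. The cofactor that rose was MEIS1, at 3.03, 4.62 and 3.15 RPM against 0.360, 0.268 and 0.719 RPM (2.81 ± 0.55, adjusted p = 0.018), and EZH2+/+ ESCs held 4.71, 9.53 and 1.62 RPM. Relative to EZH2+/+ ESCs 6 cofactors fell and PKNOX1 rose in EZH2-/- ESCs, where 18.8% of all genes tested fell and 12.6% rose. MEIS2 fell from 26.5, 40.4 and 21.0 RPM in EZH2+/+ to 2.02, 5.22 and 4.10 RPM in EZH2-/-, 1.69, 0.627 and 4.22 RPM in EZH2-/+ and 1.62, 0.750 and 3.44 RPM in restored ESCs, with no overlap between EZH2+/+ and the rest. MEIS1 and MEIS2 fell in EZH2-/+ ESCs as well (-3.31 ± 0.55, adjusted p = 0.013, and -3.99 ± 0.62, adjusted p = 0.0089).

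Of 13 related homeobox genes 7 were tested, and 2 rose in EZH2-/- relative to restored ESCs (4 with the block), where 2.63% of all genes tested rose. The 2 were EVX1, beside the HOXA cluster, with 2.27, 4.66 and 2.73 RPM against 0.977, 0.134 and 0.280 RPM (2.79 ± 0.59, adjusted p = 0.023), and MNX1 (2.57 ± 0.48, adjusted p = 0.015). CDX4, an activator of posterior HOX genes in embryos, had 17.9, 16.3 and 26.8 RPM in EZH2-/- and 16.1, 9.51 and 12.6 RPM in restored ESCs, against 1.60, 3.02 and 3.02 RPM in EZH2+/+ ESCs. It thus rose in both null-derived genotypes relative to EZH2+/+ (2.97 ± 0.32, adjusted p = 6.6e-05, and 2.30 ± 0.32, adjusted p = 0.0012), while their difference of 0.67 ± 0.32 was not called (adjusted p = 0.31).

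In the retinoic acid pathway 14 of 15 genes were tested. ALDH1A3, a retinoic acid-synthesising enzyme, rose and RARG fell in EZH2-/- relative to restored ESCs, where 542 of 20608 genes rose and 108 fell. Relative to EZH2+/+ ESCs 2 rose and 5 fell, where 12.6% of all genes tested rose and 18.8% fell. ALDH1A3 had 22.3, 29.1 and 20.3 RPM in EZH2-/-, 8.67, 10.2 and 7.79 in restored ESCs, 4.33, 7.43 and 6.49 in EZH2-/+ and 2.31, 2.92 and 1.68 RPM in EZH2+/+ ESCs, with no overlap between genotypes. RARB, a receptor gene that retinoic acid induces, had 7.93, 13 and 5.29 RPM in EZH2+/+ ESCs and 0.670 to 1.74 RPM in all 9 other libraries. RARB fell by 2.42 ± 0.37 in EZH2-/+ (adjusted p = 0.0088), 2.88 ± 0.37 in EZH2-/- (adjusted p = 0.00019) and 3.24 ± 0.37 in restored ESCs (adjusted p = 0.0004). CRABP1 also fell in all 3 genotypes, from at least 168 RPM in EZH2+/+ ESCs to at most 95.7 RPM in EZH2-/+ and at most 52.8 RPM in the null-derived ESCs.

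The table held 17 non-coding RNAs of the clusters, and 6 passed the filter. HOXA-AS3 and HOXA11-AS rose in EZH2-/- relative to restored ESCs (2.63% of all genes tested rose), and HOXA10-AS was added with the block. HOXA11-AS had 0.510, 1.05 and 0.564 RPM in EZH2-/- ESCs and at most 0.147 RPM elsewhere (2.56 ± 0.48, adjusted p = 0.015). At the anterior end of the clusters HOTAIRM1 and HOXB-AS1 fell in EZH2-/+ relative to EZH2+/+ ESCs. HOTAIRM1 went from 4.77, 9.0 and 3.50 RPM to 0.367, 0.0216 and 0.231 RPM (-4.35 ± 0.60, adjusted p = 0.0051), the same direction as HOXA2. Because strand was not used, these values and those of the HOX genes they overlap share reads.

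The chromatin data cover 110 windows of 2.5 kb either side of the start sites of the 38 genes, and values are means over the windows of each gene. In EZH2+/+ ESCs the median HOX gene carried 49.8 RPM of H3K27me3 per window, against 1.73 RPM over all 35683 gene names and 1.33 RPM of HOX input. The least marked was HOXB1 with 13.9 RPM, then HOXB2 with 18.1 and HOXA2 with 30.4 RPM, the 3 genes with the highest RNA per kilobase. EZH2 ChIP gave a HOX median of 6.84 RPM, against 0.28 over all names. In each cluster EZH2 was highest at a central or posterior gene (HOXA9 at 9.69, HOXB8 at 13.4, HOXC12 at 9.19 and HOXD9 at 9.51 RPM) and lowest at a gene of groups 1 to 4 (HOXA4 at 4.20, HOXB1 at 1.00, HOXC4 at 4.12 and HOXD1 at 4.56 RPM). Across the 38 genes EZH2 and H3K27me3 in EZH2+/+ ESCs were correlated with a Spearman rho of 0.71, as a description, since neighbouring windows overlap and share reads.

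In EZH2-/- ESCs H3K27me3 was lower at all 38 HOX genes, and the median change was -3.75 on the log2 scale. All 38 were down by at least 1, as were 42.7% of all gene names, whose median was -0.78. The smallest and largest changes were -3.07 at HOXA7 and -4.10 at HOXA3 in the HOXA cluster, -3.84 at HOXB8 and -5.16 at HOXB13 in HOXB, -2.70 at HOXC12 and -4.33 at HOXC4 in HOXC, and -3.62 at HOXD9 and -4.57 at HOXD13 in HOXD. Cluster medians were -3.41, -4.18, -3.71 and -3.74. The EZH2-/- signal had a HOX median of 3.45 RPM against 1.35 RPM of EZH2-/- input, and was above that input at 34 of 38 genes, compared with 18.2% of all names. The 4 at or below input were HOXB1 (0.73 RPM), HOXB2 (0.69 RPM), HOXB13 and HOXD1, whereas HOXC12 was at 7.65 RPM. RPM are scaled to each library, so they do not measure how much of the mark remained per cell. By ChIP-qPCR at several promoters and by immunofluorescence, the study reports H3K27me3 at background in EZH2-/- ESCs.

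**Figure D4:**
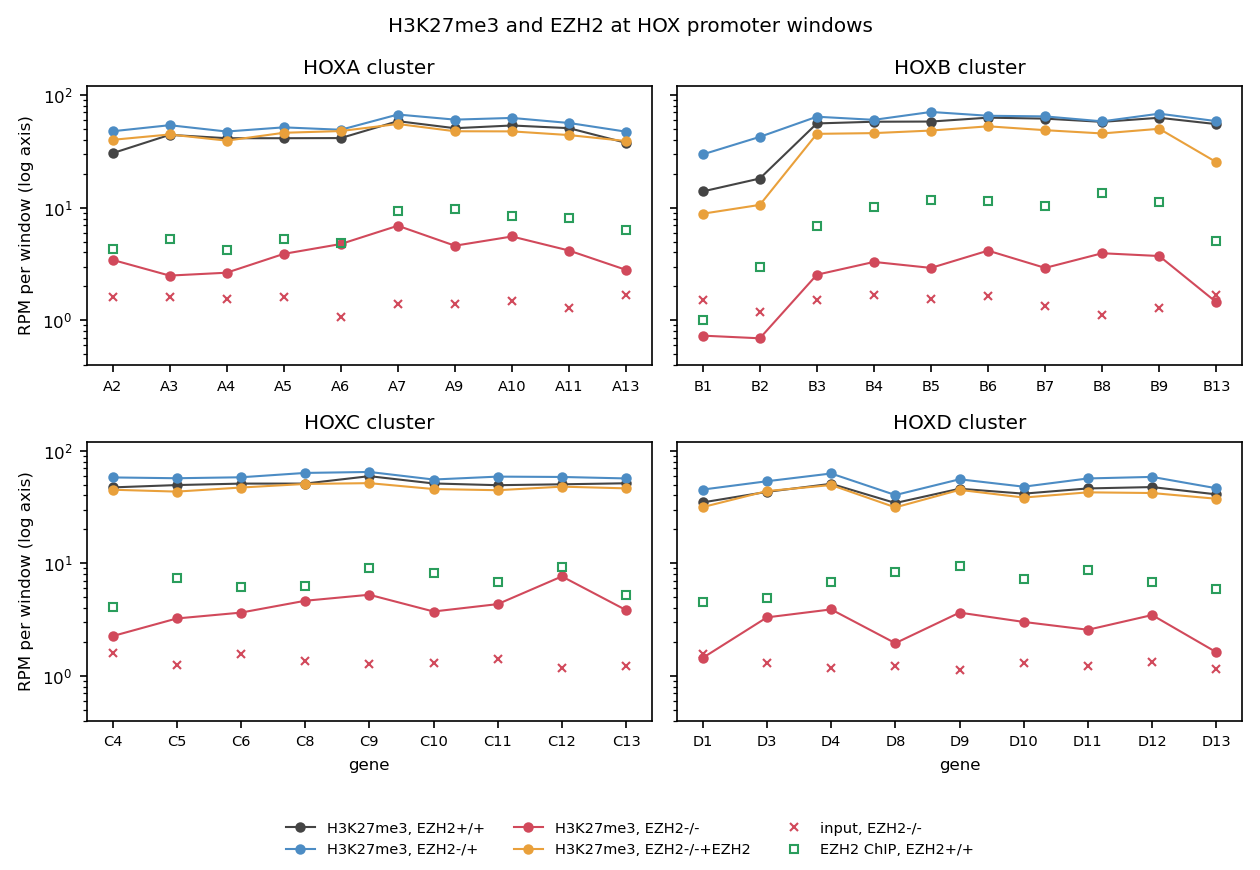
H3K27me3 in the 4 genotypes, EZH2-/- input and EZH2 ChIP in EZH2+/+ ESCs at each HOX gene (x axis, in paralog order, 1 panel per cluster), in RPM per promoter window on a log axis, with 1 averaged column per genotype and no replicate spread. The EZH2-/- line runs far below the other genotypes in every cluster, and the dip at HOXB1 and HOXB2 is present in all genotypes.

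H3K27me3 was back in restored ESCs, with a HOX median of 45.0 RPM. EZH2-/- lay below restored ESCs by at least 1 at 38 of 38 genes (median -3.63), against 33.0% of all names. restored ESCs differed from EZH2+/+ ESCs by a median of -0.13, from -1.12 at HOXB13 to 0.39 at HOXA2. HOXB13 was the only member down by 1 or more, compared with 3.53% of names, and it had 55.1 RPM in EZH2+/+, 1.45 in EZH2-/- and 25.3 RPM in restored ESCs. It was also the member whose RNA was called above EZH2+/+ in restored ESCs. HOXB2 (-0.77) and HOXB1 (-0.65) had the next largest deficits of H3K27me3. Their fitted RNA changes from EZH2+/+ to restored ESCs were negative, at -0.75 (not called) and -1.73. HOXD13, with no RNA reads in restored ESCs, had 40.9 RPM of H3K27me3 in EZH2+/+, 1.62 in EZH2-/- and 37.4 RPM in restored ESCs. Any link of these values was not tested.

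In EZH2-/+ ESCs H3K27me3 was above EZH2+/+ at all 38 genes by a median of 0.23, where 37.9% of all names were positive. The increase reached 1 at HOXB2 (1.22, from 18.1 to 42.4 RPM) and HOXB1 (1.09, from 13.9 to 29.7 RPM), compared with 0.611% of names, and HOXA2 followed with 0.65 (30.4 to 47.6 RPM). These 3 genes also had the highest RNA per kilobase in EZH2+/+ ESCs and fell in EZH2-/+ ESCs. Across all 38 genes the changes of H3K27me3 and RNA between these genotypes had a rho of -0.06.

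The other marks moved far less. H3K4me3 at HOX genes had a median of 8.88 RPM in EZH2+/+ ESCs, and 6.77 RPM remained in EZH2-/- ESCs. The median change was -0.25, against -0.15 over all names, and 1 gene fell by 1 or more, HOXA2 (-1.24, from 15.5 to 6.50 RPM), where 11.2% of names did. The lowest and highest changes in the clusters were HOXA2 and 0.25 at HOXA5, -0.85 at HOXB9 and 0.06 at HOXB13, -0.60 at HOXC9 and 0.75 at HOXC13, and -0.63 at HOXD4 and 0.16 at HOXD12. Against restored ESCs the HOX median was -0.34, with 36 of 38 negative, while the median of all names was 0.05 and 58.4% of them were positive.

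H3K27ac was low at HOX promoters in every genotype, with medians of 0.95 RPM in EZH2+/+, 1.05 in EZH2-/+, 1.11 in EZH2-/- and 0.71 RPM in restored ESCs, against 2.10 RPM over all names and 1.33 RPM of HOX input in EZH2+/+ ESCs. It exceeded the input of the same genotype at 5, 3, 13 and 2 of the 38 genes, where 73.9%, 75.7%, 77.1% and 72.5% of all names did. The median EZH2-/- minus EZH2+/+ change was 0.23, level with the 0.24 of all names, and HOXD12 (1.34) and HOXC13 (1.15) reached 1, compared with 5.76% of names. The other extremes were -0.21 at HOXA6 and 0.65 at HOXA4, -0.75 at HOXB9 and 0.87 at HOXB5, 0.07 at HOXC10 and -0.92 at HOXD4. Against restored ESCs the median was 0.63 with 36 of 38 positive (0.11 over all names, 60.4% of them positive), and HOXD12, HOXC13, HOXB5, HOXD3 and HOXC4 reached 1, compared with 1.98% of names. None of these exceeded input in restored ESCs, and HOXD3 did not in EZH2-/- ESCs either.

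H3K4me1 was higher in EZH2-/- than in EZH2+/+ ESCs at all 38 genes, with a median of 0.60 against 0.08 over all names, of which 57.1% were positive. The HOX medians were 3.93 RPM in EZH2+/+, 3.86 in EZH2-/+, 6.43 in EZH2-/- and 3.99 RPM in restored ESCs. The HOXC cluster had the highest median of the 4 clusters, 0.92, and a range from 0.60 at HOXC5 to 1.66 at HOXC13. HOXC13, HOXC10 and HOXC6 reached 1, where 1.93% of names did, and HOXC13 went from 2.30 RPM in EZH2+/+ to 7.48 in EZH2-/- and 2.34 RPM in restored ESCs. In the other clusters the changes ran from 0.11 at HOXA11 to 0.73 at HOXA6, from 0.33 at HOXB8 to 0.76 at HOXB6 and from 0.26 at HOXD1 to 0.79 at HOXD13. Against restored ESCs all 38 were positive as well (median 0.62, against 0.10 over all names, 64.7% of them positive), and HOXC13, HOXD4, HOXC10, HOXC8 and HOXC12 reached 1, compared with 0.221% of names.

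**Figure D5:**
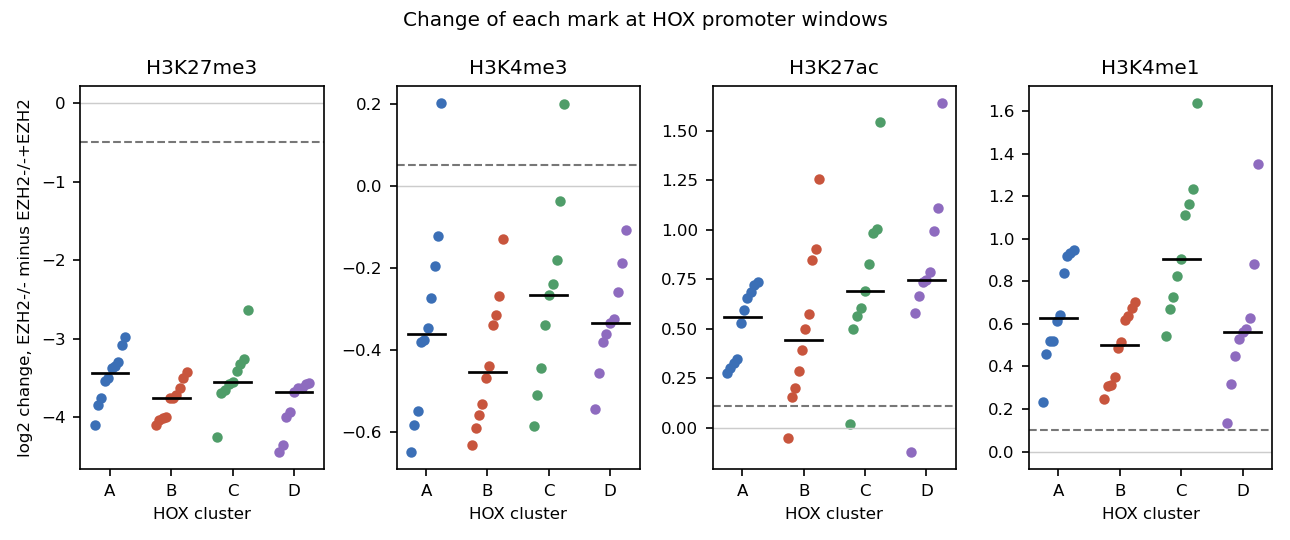
Change of each mark from restored ESCs to EZH2-/- ESCs, as differences of log2(RPM + 0.1), with 1 point per HOX gene by cluster, a black bar at the cluster median, a dashed line at the median of all gene names and a thin line at 0. Each panel has its own y axis. H3K27me3 points lie far below the dashed line, H3K4me3 points mostly below it, and H3K27ac and H3K4me1 points mostly above it.

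Rank correlations across the 38 genes were computed between chromatin and RNA. Between EZH2-/- and restored ESCs the change of RNA had a rho of -0.12 with the change of H3K27me3, 0.03 with H3K4me3, -0.13 with H3K27ac and -0.14 with H3K4me1. In EZH2-/- ESCs themselves the RNA level had a rho of -0.32 with H3K27me3, 0.26 with H3K4me3, 0.20 with H3K27ac and 0.41 with H3K4me1. These are descriptions over 38 neighbouring genes with many RNA values near 0, and carry no test. HOXA6 had 1 EZH2-/- library at 0.0188 RPM and no reads elsewhere, and HOXC12 had 0.0939 RPM in 1 EZH2-/- library. Both had more H3K27me3 signal over EZH2-/- input than the median member, and HOXC12 had the smallest loss of the 38. Their H3K27me3 was 4.45 and 6.49 times EZH2-/- input. HOXA7, whose RNA was called higher in EZH2-/- than in restored ESCs, was at 4.95 times input, more than HOXA6. Any link of this H3K27me3 signal to RNA was not tested.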

How the data were processed

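H9 ESCs of 4 genotypes were sorted for SSEA4, with 3 RNA libraries each. The authors trimmed reads (Trim Galore 0.4.0), aligned them to GRCh38 (TopHat2 2.0.12 for RNA-seq with Ensembl release 70 gene models, Bowtie2 2.2.5 for ChIP-seq), counted reads without strand in SeqMonk, and deposited log2 RPM values. ChIP reads were extended by 200 bp and counted around start sites. Low RNA values were whole multiples of 1 read (100% within 0.1 of a read), and genes without reads (entered as 0.9 of a read) were set to 0. RPM were tested with limma 3.58.1 in R 4.3.3 (lmFit, eBayes with trend) on log2(RPM + 0.1) over all 12 libraries, with Benjamini-Hochberg adjustment over 20608 genes and a threshold of 0.05. Changes on this scale understate those of low genes. The authors used DESeq2 on raw counts.

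Libraries of the same number deviated together (18 of 18 pairs with r over 0.1, mean 0.33, range 0.11 to 0.56, against a mean of -0.16 over 36 other pairs), so the numbers were taken to pair the libraries and a blocked fit is given where it changes a call. The pairing comes from the data and the library numbers in the labels. Exon lengths were from GENCODE 44. Sums, shares and per-kilobase levels used linear RPM. Chromatin values were averaged over all windows of a gene, not the window with most H3K27me3, which would select on the readout. Each histone column is a mean of libraries, so no depth or interval is given for it. Genes named with every library's values were those called in any comparison and the highest of each cluster, while HOXB8, HOXB9, HOXA4, HOXA6, HOXC12, HOXD11, HOXD12, the 5 genes shown by sequence and the cofactor and marker genes given by library were picked after their values were seen. Named chromatin values are the extremes of each cluster. Members and gene lists were chosen with earlier results of these data known. Alternatives covered the pseudocount, filter, scaling, voom, block, genotypes fitted and each library left out.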

Additional observations from a re-analysis of the deposited data

How the results depend on the processing

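Across 106 alternative analyses of the summary results, 75 stayed within 1.5 times the reported count or within the spread. No direction reversed: of 447 alternatives to the 34 called gene comparisons, 361 kept the call and 86 kept the direction but passed no threshold, 13 of 34 with voom, 10 of 34 with only the 2 genotypes compared, 10 of 34 with library number 3 left out everywhere and 5 of 34 with a pseudocount of 1 RPM. The replicate block raised the members higher in EZH2-/- than restored ESCs from 12 to 15, kept 34 of 34 calls and changed no other member's call. That count was 19 with no filter, 0 with a mean of at least 1 RPM (3 members tested), 4 with voom, 3 without library number 3, and 3 to 16 when leaving out 1 library. Calls over all genes moved too, from 542 higher to 1276 with the block, 238 with voom and 241 without library number 3. They were 123 to 644 when leaving out 1 library. Against EZH2+/+ ESCs, the 11 higher members became 20 with no filter and 0 at 1 RPM (10 to 14 leaving out 1 library), and the 2 lower became 1 at 1 RPM (2 to 2). The 5 lower members in EZH2-/+ ESCs became 3 at 1 RPM, 0 in a fit of those 2 genotypes and 3 to 5 leaving out 1 library, with 3 without EZH2+/+ or EZH2-/+ library 2. The 3 lower members in restored ESCs became 0 at 1 RPM, 1 with voom, 5 without library number 3 and 1 to 4 leaving out 1 library, with 1 without EZH2+/+ library 1 or 2 or restored library 3. The 1 higher member, HOXB13, became 0 with a pseudocount of 1 RPM, at 1 RPM and with voom, and 0 to 1 leaving out 1 library, lost when any single EZH2+/+ library, or restored library 1, was left out. At 1 RPM only 3 members were tested, and HOXB1, among them, lost its call in restored ESCs. The causes of these changes were not tested. The median EZH2-/- minus EZH2+/+ change of H3K27me3 (-3.75) was -3.45 with a pseudocount of 1 RPM and -3.52 after centring on names with H3K27me3 below input in EZH2+/+ ESCs. For H3K4me3 (-0.25) the same centring gave -0.0023, for H3K27ac (0.23) the pseudocount gave 0.13, and for H3K4me1 (0.60) that centring gave 0.68. EZH2 occupancy (6.84 RPM) was 8.03 or 6.60 RPM with other choices of window, added after seeing the data. With 3 reads worth up to 0.120 RPM, most values outside EZH2-/- ESCs are at the limit of counting.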
